A study of Mus musculus with 31 samples.

Results

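The transporters of the Slc22 and Slco families carry organic ions across cell membranes, and 37 of the 22180 genes measured in these mouse livers belong to them. They were chosen by name: every gene whose probe set carries a single symbol of the form Slc22a or Slco with its number, apart from 1 Slc22 gene that the rule leaves out. There were 22 Slc22 genes and 15 Slco genes on 38 probe sets, and only Slco2b1 had more than 1 probe set. The rule uses names and no measured value. Where a gene had several probe sets, the brightest on average was used.

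The study asked whether repeated fasting leaves a lasting mark on liver transcripts. All 31 livers came from male C57BL/6 mice aged 3 to 4 months and were taken in the morning, 1 array per liver. Fed-Fed-Fast mice (8 arrays) went through no earlier fast and were killed at the end of a 16 h fast, while Fed-Fed-Fed mice (8 arrays) had food throughout. Fast-Fast-Fast mice (7 arrays) had been through 2 fasts of 16 h within 8 weeks, each followed by recovery, and were killed at the end of a further 16 h fast. Fast-Fast-Fed mice (8 arrays) shared those 2 earlier fasts and were killed fed. A cohort size of 24 mice is recorded alike for all 4 groups, and the labels name no transgene or agent in any group.

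Hepatocytes take up bile acids, hormones, drugs and toxins from the blood across their basolateral membrane, and export many of them into bile across the canalicular membrane. Slco genes encode the organic anion transporting polypeptides (OATPs), which take up bile acids, steroid and thyroid hormone conjugates and many drugs without needing sodium. Slc22 genes encode the organic anion transporters (OATs), the organic cation transporters and their relatives, which carry smaller organic ions and are best known from kidney and liver. In mice several of these genes differ between the sexes: Slco1a1 is known to be higher in male liver and Slco1a4 in female liver.

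Levels are RMA values on the log2 scale, so a difference of 1 is a doubling of signal, and levels of different probe sets were not set against each other. The 31 arrays had medians of 2.01 to 2.07, and pairs of arrays correlated at 0.965 to 0.982 across probe sets. The mean of the 8 hepatocyte markers lay between 11.5 and 11.6 on every array, and the 7 kidney tubule markers were all at or under 4, with means of 1.46 to 1.77 per array. Of the 37 transporters, 12 had a mean over all arrays above 4, the lowest of them at 4.36. The other 25 lay between 1.01 and 3.22, among them the kidney transporters Slc22a6, Slc22a8, Slc22a2 and Slc22a12 and the testis genes Slco6b1, Slco6c1 and Slco6d1. How many arrays a group held sets the precision of its values.

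Among the transporters that responded to the final fast, Slco1a1, Slco1a4, Slco1b2, Slc22a28 and Slc22a30 lie in clusters of related genes. The same clusters also hold transporters that were not called. Slc22a28 and Slc22a30 belong to a run of rodent genes of the OAT branch on chromosome 19, in the order Slc22a19, Slc22a26, Slc22a27, Slc22a28, Slc22a29 and Slc22a30, and of these 6 only Slc22a28 and Slc22a30 had a mean above 4. Their promoter windows, 250 bases before and 50 after the annotated start, are given in full because both genes fell in the fast. Slc22a29, which lies between them, was not called. Both are from RefSeq on GRCm38.p6 and are written 5′ to 3′ on the minus strand, at chr19:8131933-8132232 for Slc22a28 and chr19:8405056-8405355 for Slc22a30. Capitals mark bases that differ between them or have no partner in the other window:
Slc22a28: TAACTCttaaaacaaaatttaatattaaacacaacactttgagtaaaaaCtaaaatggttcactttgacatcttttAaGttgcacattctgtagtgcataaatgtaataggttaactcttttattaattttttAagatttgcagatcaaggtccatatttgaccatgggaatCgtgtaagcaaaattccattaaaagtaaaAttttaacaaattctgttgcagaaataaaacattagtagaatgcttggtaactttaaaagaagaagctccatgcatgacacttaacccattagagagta
Slc22a30: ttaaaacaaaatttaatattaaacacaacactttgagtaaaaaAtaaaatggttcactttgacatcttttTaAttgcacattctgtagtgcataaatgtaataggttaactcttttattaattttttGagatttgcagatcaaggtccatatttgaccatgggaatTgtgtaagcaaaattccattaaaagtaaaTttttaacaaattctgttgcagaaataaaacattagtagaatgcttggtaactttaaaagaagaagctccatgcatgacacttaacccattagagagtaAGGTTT
The windows aligned over 294 bases with 6 mismatches, so 288 of 300 bases (96.0%) were identical. The annotated starts lie 6 bases apart in that alignment. The other 14 pairs within the cluster were identical at no more than 72.3% of the window, which was the value of Slc22a28 with Slc22a29. Genes this alike can share array signal, and whether the probe sets of Slc22a28 and Slc22a30 tell their transcripts apart was not tested.

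Slco1a1 and Slco1a4 are neighbours on chromosome 6, in the order Slco1c1, Slco1b2, Slco1a4, Slco1a1, Slco1a6 and Slco1a5. Their windows are shown because their signals moved in opposite directions in the fast. Both are on the minus strand of GRCm38.p6, at chr6:141946913-141947212 for Slco1a1 and chr6:141856171-141856470 for Slco1a4. Capitals mark AGGTCA, the core element of many nuclear receptors, on either strand:
Slco1a1: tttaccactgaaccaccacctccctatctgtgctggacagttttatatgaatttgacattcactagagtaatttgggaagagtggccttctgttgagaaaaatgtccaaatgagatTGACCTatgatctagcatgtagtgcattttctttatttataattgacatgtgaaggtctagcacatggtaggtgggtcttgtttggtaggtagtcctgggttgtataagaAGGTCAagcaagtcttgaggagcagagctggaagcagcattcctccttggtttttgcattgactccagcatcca
Slco1a4: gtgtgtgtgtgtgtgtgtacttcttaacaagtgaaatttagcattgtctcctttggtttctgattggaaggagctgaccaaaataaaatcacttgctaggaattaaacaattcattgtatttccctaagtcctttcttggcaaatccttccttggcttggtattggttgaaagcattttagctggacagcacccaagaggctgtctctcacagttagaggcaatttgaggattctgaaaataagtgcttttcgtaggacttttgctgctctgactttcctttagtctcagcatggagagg
The windows of Slco1a1 and Slco1a4 were identical at 55.0% of bases, within the range of 47.7 to 64.7% over the 15 pairs of the cluster.

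A window was found in RefSeq for 33 of the 37 genes (38 windows), and 8 motifs were searched on both strands. AGGTCA was in 13.2% of the member windows, against 16.3% of all 32851 windows of that length. It stood in the Slco1a1 window at positions -24 and -134 from the start. The windows of Slco1b2 and of the uncalled genes Slc22a14, Slc22a27 and Slco4a1 held it too. GTTAAT, the core of the HNF1 element, was in 10.5% against 7.1%, in Slco1b2 and in the uncalled genes Slc22a6, Slc22a8 and Slc22a29. TTGCNNAA, bound by C/EBP factors, was in 13.2% against 10.8%. It was in the nearly identical windows of Slc22a28 and Slc22a30 and in the uncalled genes Slc22a29, Slc22a6 and Slco1a5. TTCNNNGAA, bound by STAT5, was in 21.1% against 8.3%. TGTTCT, the glucocorticoid receptor element, was in 21.1% against 19.0%, and TATAAA, the TATA box, in 21.1% against 13.6%. CAAAGTCCA, an HNF4 element, and TGTTTAC, a FOXA element, were in none of the 38 windows, against 0.475% and 3.65% of all windows. No match of one motif overlapped a match of another in the member windows.

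In mice with no earlier fast, the final 16 h fast changed 8 of the 37 transporters at an adjusted p under 0.05 over all genes. Slco1a4 rose, and Slco1a1, Slco1b2, Slco2a1, Slc22a7, Slc22a28, Slc22a30 and Slc22a23 fell. That is 21.6% of the transporters, against 12.5% of all genes, with 1 transporter higher against 6.25% of all genes and 7 lower against 6.23%. In mice with 2 earlier fasts, 1 rose and 6 fell, all of them also called in mice with no earlier fast. That is 18.9%, against 11.6% of all genes, 6.06% of them higher and 5.52% lower. All calls fell among the 12 transporters with a mean above 4, of which 8 and 7 were called, against 29.1% and 26.9% of all genes above that level. The median change of the 37 was -0.01 without and -0.02 with earlier fasts, against -0.004 and -0.0004 over all genes. The 2 responses rest on separate arrays but share 1 estimate of the variance. In whole liver, fewer cells of a type and less RNA per cell cannot be told apart.

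**Figure D1:**
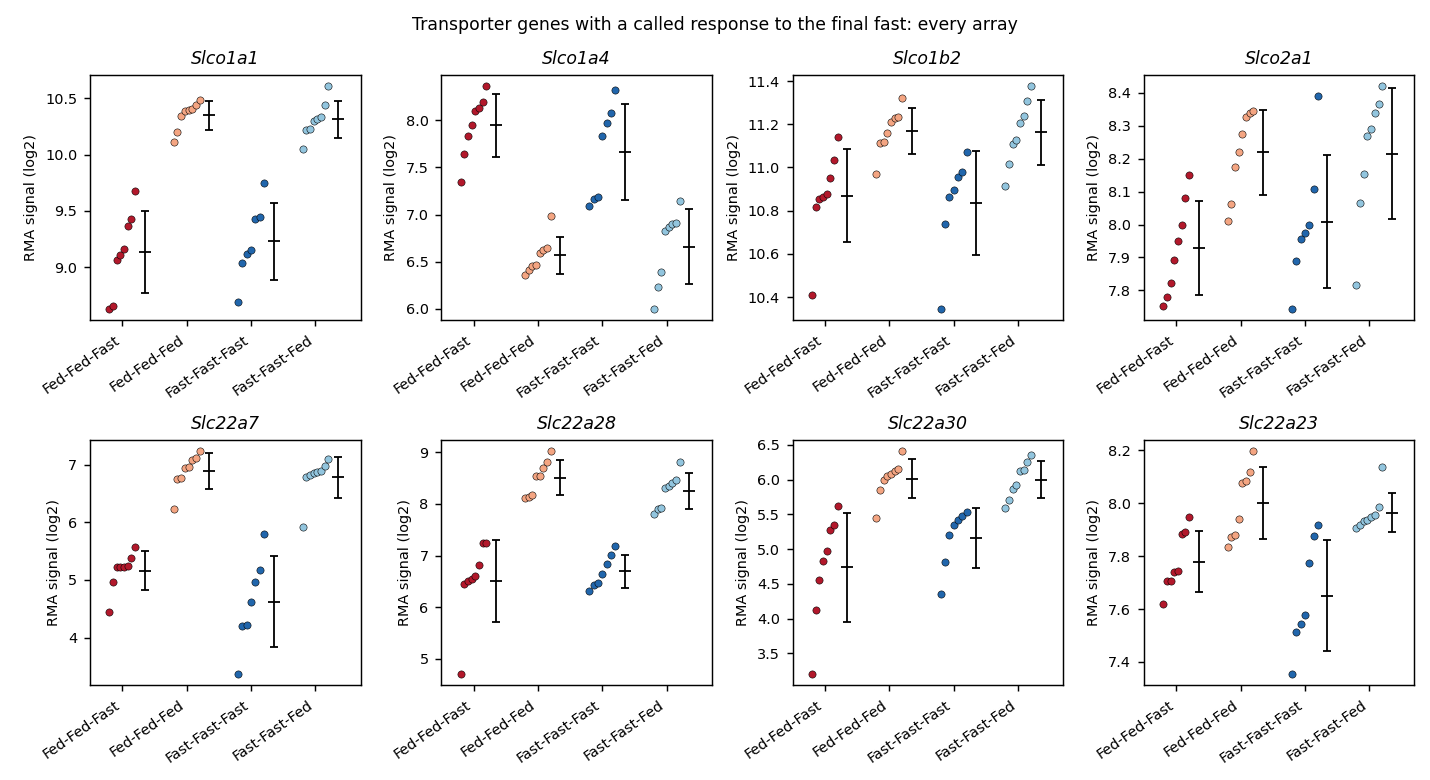
RMA signal (log2) of the 8 transporters called in a response to the final fast, 1 point per array, in the 4 groups on the horizontal axis; the bar beside each group is the mean ± SD (n = 8, 8, 7 and 8 from left to right). Fasted and fed arrays do not overlap for Slco1a1, Slc22a7 and Slc22a28 with either history, and Slco1a4 is the gene that is higher in fasted livers.

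**Figure D2:**
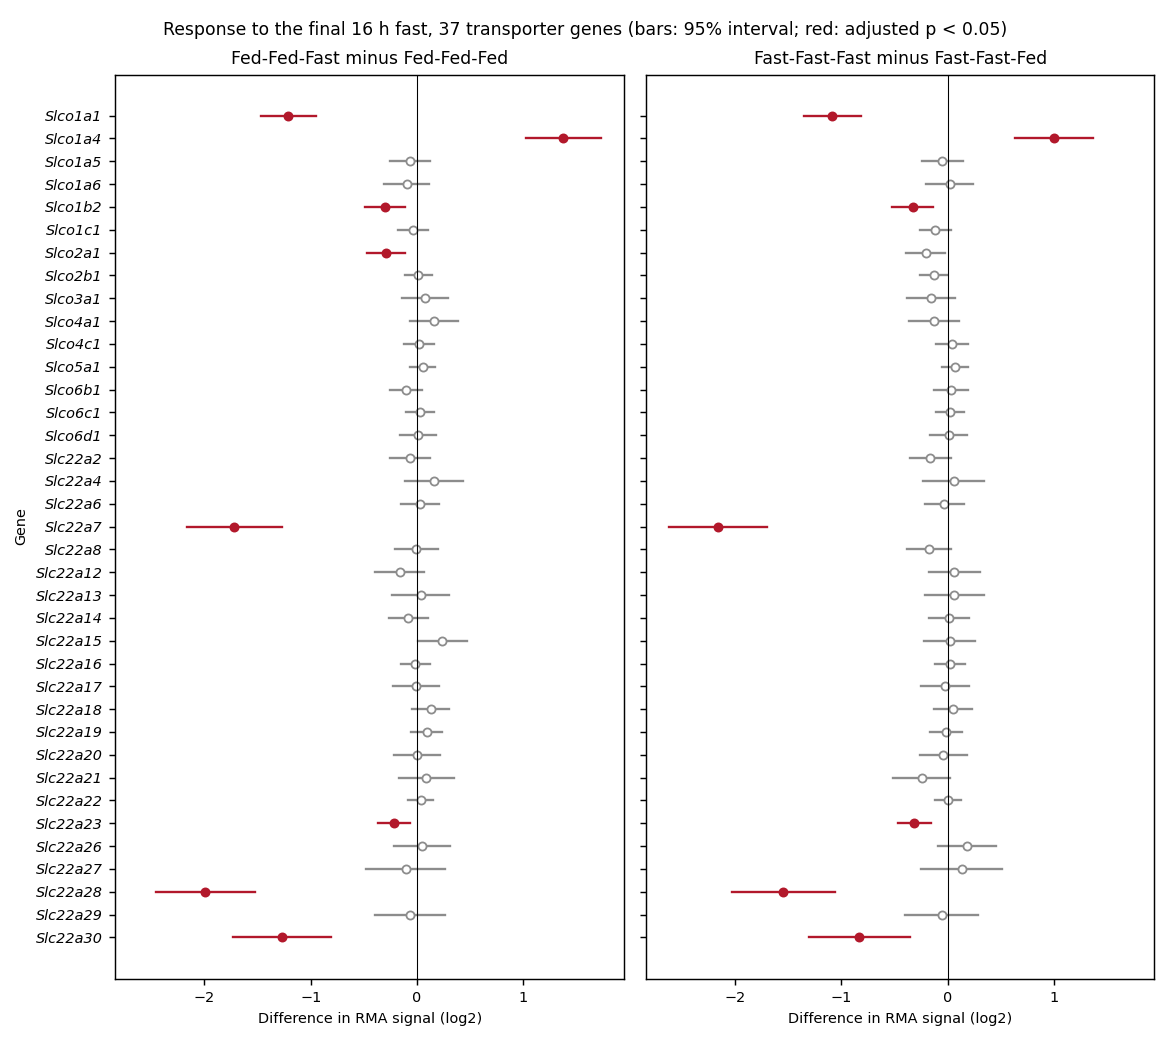
Difference in RMA signal (log2) between fasted and fed livers for all 37 transporters, Slco genes above Slc22 genes, without earlier fasts on the left and with 2 earlier fasts on the right. Points are estimates, bars are 95% intervals and filled red points have an adjusted p under 0.05; most genes lie near 0.

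Slco1a1, the OATP of male mouse liver that takes up bile acids and steroid conjugates, was lower in every fasted liver than in any fed liver of the same history. In Fed-Fed-Fast livers its level ran over 8.63, 8.65, 9.07, 9.11, 9.16, 9.37, 9.43 and 9.68, against 10.11, 10.20, 10.34, 10.39, 10.40, 10.41, 10.45 and 10.48 in Fed-Fed-Fed livers. In Fast-Fast-Fast livers it was 8.69, 9.03, 9.12, 9.15, 9.43, 9.44 and 9.75, against 10.05 to 10.61 with a median of 10.31 in Fast-Fast-Fed livers. The SD between animals was 0.36 and 0.34 in the fasted groups and 0.13 and 0.16 in the fed groups. The change was -1.21 ± 0.13 on the log2 scale (SE, adjusted p = 6.72e-09), or 2.32-fold lower, without earlier fasts and -1.08 ± 0.13 (adjusted p = 1.63e-07), or 2.12-fold lower, with them.

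Slco1a4, a neighbouring OATP that takes up bile acids and cardiac glycosides and is a known target of the receptor PXR, was the only transporter that rose. Its level was 7.34, 7.65, 7.83, 7.95, 8.10, 8.12, 8.19 and 8.37 in Fed-Fed-Fast livers, against 6.36, 6.41, 6.45, 6.47, 6.59, 6.63, 6.65 and 6.98 in Fed-Fed-Fed livers. In Fast-Fast-Fast livers it was 7.09, 7.16, 7.19, 7.83, 7.96, 8.07 and 8.32, against 6.00 to 7.14 with a median of 6.85 in Fast-Fast-Fed livers. Without earlier fasts the groups did not overlap, and with them 6 of 7 fasted livers lay above every fed liver. The level was 2.60-fold higher without earlier fasts (log2 change 1.38 ± 0.17, adjusted p = 2.29e-07) and 2.00-fold higher with them (1.00 ± 0.18, adjusted p = 0.000105).

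Slco1b2, the rodent counterpart of the human liver uptake carriers OATP1B1 and OATP1B3, fell less. It had a lowest, median and highest level of 10.41, 10.87 and 11.14 in Fed-Fed-Fast livers, against 10.97, 11.18 and 11.32 in Fed-Fed-Fed livers. In Fast-Fast-Fast livers these were 10.35, 10.89 and 11.07, against 10.92, 11.17 and 11.38 in Fast-Fast-Fed livers. The groups overlapped in both histories, and 6 of 8 fasted livers without and 4 of 7 with earlier fasts lay below every fed liver. The change was -0.30 ± 0.09 (adjusted p = 0.0255) without and -0.33 ± 0.10 (adjusted p = 0.0184) with earlier fasts. Each call was lost when the lowest fasted liver was left out. Without Fed-Fed-Fast replicate 5 the change was -0.23 (adjusted p = 0.0792), and without Fast-Fast-Fast replicate 4 it was -0.25 (adjusted p = 0.0699). The call without earlier fasts was also lost when Fed-Fed-Fed replicate 6 was left out.

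Slco2a1, the prostaglandin transporter, was lower in fasted livers without earlier fasts, at 7.75 to 8.15 with a median of 7.92 in Fed-Fed-Fast livers, against 8.01 to 8.35 with a median of 8.25 in Fed-Fed-Fed livers. The change was -0.29 ± 0.09 (adjusted p = 0.0201), and 6 of 8 fasted livers lay below every fed liver. With 2 earlier fasts the level was 7.74 to 8.39 in Fast-Fast-Fast livers and 7.82 to 8.42 in Fast-Fast-Fed livers, and the change of -0.21 ± 0.09 did not pass the test (adjusted p = 0.154). The highest of those fasted livers was replicate 4, and without it the change was -0.27 (adjusted p = 0.0377). Without Fast-Fast-Fed replicate 1 the test was also passed. The difference between the 2 responses was 0.08, with a 95% interval of -0.17 to 0.34 (interaction, adjusted p = 0.999).

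Slco2b1, an OATP of liver and intestine, averaged 8.12 ± 0.07 in Fed-Fed-Fast livers and 8.11 ± 0.09 in Fed-Fed-Fed livers (SD, n = 8 each). It averaged 8.01 ± 0.06 in Fast-Fast-Fast livers (n = 7) and 8.14 ± 0.15 in Fast-Fast-Fed livers (n = 8). The 95% intervals of the change ran over -0.11 to 0.14 and -0.26 to -0.003, and neither passed the test over all genes (adjusted p = 0.948 and 0.216). Slco3a1, an OATP of many tissues, was at 3.27 ± 0.17 in Fed-Fed-Fast livers and 3.20 ± 0.20 in Fed-Fed-Fed livers, and at 3.12 ± 0.16 in Fast-Fast-Fast livers and 3.27 ± 0.31 in Fast-Fast-Fed livers (SD, n = 8, 8, 7 and 8). Neither of its changes, 0.07 and -0.15, was called.

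Among the OATs, Slc22a7 had the largest fall with 2 earlier fasts. It encodes OAT2, which exchanges organic anions such as cyclic GMP and prostaglandins at the sinusoidal membrane. In Fed-Fed-Fast livers its level was 4.45, 4.96, 5.22, 5.22, 5.23, 5.24, 5.38 and 5.58, against 6.22, 6.75, 6.77, 6.95, 6.95, 7.07, 7.11 and 7.24 in Fed-Fed-Fed livers. In Fast-Fast-Fast livers it was 3.37, 4.20, 4.22, 4.61, 4.96, 5.17 and 5.80, against 5.92, 6.79, 6.83, 6.85, 6.86, 6.89, 6.97 and 7.10 in Fast-Fast-Fed livers. The groups did not overlap, although the highest Fast-Fast-Fast liver came near the lowest Fast-Fast-Fed liver. The change was -1.72 ± 0.22 (adjusted p = 3.26e-07), or 3.30-fold lower, without earlier fasts and -2.16 ± 0.23 (adjusted p = 8.18e-09), or 4.46-fold lower, with them. The SD of the Fast-Fast-Fast livers was 0.79, against 0.31 to 0.36 in the other 3 groups.

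Slc22a28, an OAT relative known from rodents, had the largest fall without earlier fasts. Its level was 4.71, 6.45, 6.51, 6.55, 6.60, 6.82, 7.23 and 7.25 in Fed-Fed-Fast livers, against 8.12, 8.14, 8.17, 8.54, 8.55, 8.69, 8.82 and 9.02 in Fed-Fed-Fed livers. In Fast-Fast-Fast livers it was 6.32 to 7.18 with a median of 6.64, against 7.80 to 8.82 with a median of 8.33 in Fast-Fast-Fed livers. Fasted and fed livers did not overlap, and Fed-Fed-Fast replicate 5 stood well below the other fasted livers. The change was -1.99 ± 0.23 (adjusted p = 4.38e-08), or 3.98-fold lower, without earlier fasts and -1.55 ± 0.24 (adjusted p = 1.07e-05), or 2.92-fold lower, with them. Without that liver the change in mice with no earlier fast was -1.73.

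Slc22a30, whose promoter window nearly matches that of Slc22a28, fell with it. Its level was 3.20, 4.12, 4.55, 4.83, 4.97, 5.27, 5.35 and 5.62 in Fed-Fed-Fast livers, against 5.44, 5.85, 6.00, 6.06, 6.08, 6.12, 6.15 and 6.41 in Fed-Fed-Fed livers. In Fast-Fast-Fast livers it was 4.36, 4.81, 5.20, 5.34, 5.43, 5.48 and 5.54, against 5.60 to 6.35 with a median of 6.03 in Fast-Fast-Fed livers. Only the highest Fed-Fed-Fast liver reached into the fed range, and the lowest was again replicate 5. The change was -1.27 ± 0.23 (adjusted p = 7.84e-05) without earlier fasts and -0.83 ± 0.23 (adjusted p = 0.0142) with them. Without Fast-Fast-Fast replicate 6 the change with earlier fasts was -0.70 and its adjusted p was 0.0508. The 4 other genes of the cluster were not called in either response.

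Slc22a23, an orphan member whose substrate is not settled, fell slightly. It averaged 7.78 ± 0.11 in Fed-Fed-Fast livers and 8.00 ± 0.14 in Fed-Fed-Fed livers (SD, n = 8 each), and 7.65 ± 0.21 in Fast-Fast-Fast livers (n = 7) and 7.96 ± 0.07 in Fast-Fast-Fed livers (n = 8). The change was -0.22 ± 0.07 (SE, adjusted p = 0.0446) without earlier fasts, a call lost in 10 of the fits that left out 1 array and when only the groups compared were fitted (adjusted p = 0.0553). With earlier fasts it was -0.31 ± 0.08 (adjusted p = 0.00413), and 6 of 7 fasted livers lay below every fed liver. Slc22a18, an imprinted gene of the cation transporter branch, was at 7.46 ± 0.18 in Fed-Fed-Fast livers and 7.33 ± 0.17 in Fed-Fed-Fed livers, with changes of 0.13 and 0.05 that were not called. Slc22a13 and Slc22a15, the other members above a mean of 4, were not called either, with changes of 0.03 and 0.24 without and 0.06 and 0.02 with earlier fasts. The 25 transporters at or under 4 had no call, and their changes ran over -0.16 to 0.16 without and -0.24 to 0.19 with earlier fasts.

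The earlier fasts themselves were tested in fed livers, in fasted livers, as their mean over both states, and as an interaction, which asks whether the response to the final fast differed with history. No transporter was called by limma in any of these 4 comparisons, and the background was 0% of all genes in each. At an unadjusted p under 0.05 there were 2 transporters in fed livers, 1 in fasted livers, 0 in the interaction and 4 in the mean, against 1245, 996, 1023 and 1185 of all 22180 genes. These comparisons share their arrays with each other and with the responses to the final fast.

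**Figure D3:**
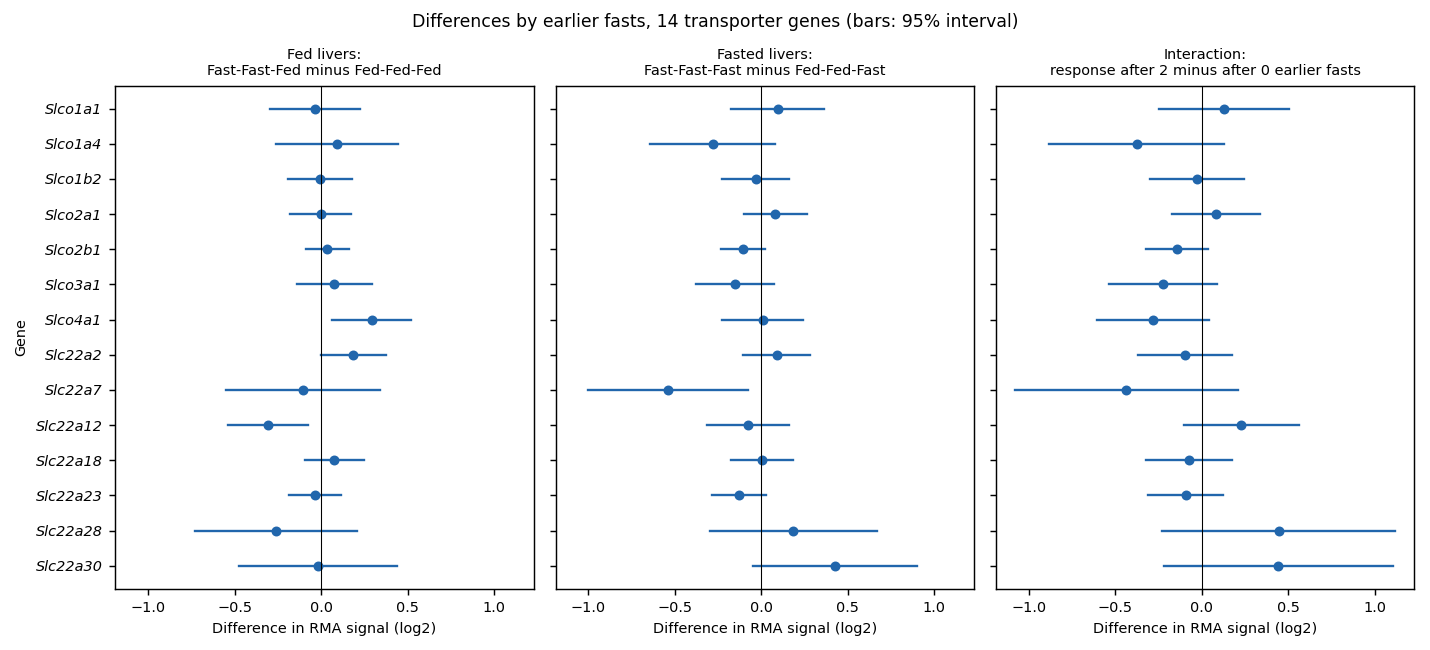
Differences in RMA signal (log2) that go with earlier fasts for 14 named transporters: fed livers on the left, fasted livers in the middle and the interaction on the right. Points are estimates and bars 95% intervals; none has an adjusted p under 0.05, and the intervals of Slc22a7, Slc22a28 and Slc22a30 are the widest of these genes in fasted livers.

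For Slco1a1 the difference between Fast-Fast-Fed and Fed-Fed-Fed livers was -0.03, with a 95% interval of -0.29 to 0.23, and that between Fast-Fast-Fast and Fed-Fed-Fast livers was 0.09 (-0.18 to 0.36). For Slco1a4 they were 0.09 (-0.26 to 0.44) and -0.28 (-0.65 to 0.08), and for Slco1b2 -0.01 (-0.19 to 0.18) and -0.03 (-0.23 to 0.16).

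Slc22a7 had group means of 4.62 in Fast-Fast-Fast livers and 5.16 in Fed-Fed-Fast livers. The difference was -0.54 (95% interval -1.004 to -0.08), its unadjusted p was 0.0234 and its adjusted p was 0.9998. Without Fast-Fast-Fast replicate 4, the lowest liver, it was -0.33. In fed livers it was -0.10 (-0.55 to 0.34), and the interaction was -0.44 (-1.08 to 0.21), or -0.23 without that liver. The interaction was 0.45 for Slc22a28 (-0.23 to 1.12), 0.44 for Slc22a30 (-0.22 to 1.10) and -0.38 for Slco1a4 (-0.88 to 0.13), with an adjusted p of 0.999 each. Without Fed-Fed-Fast replicate 5, the interaction was 0.19 for Slc22a28 and 0.22 for Slc22a30.

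The smallest unadjusted p-values in fed livers belonged to transporters with low levels. Slc22a12, the urate transporter of the kidney tubule, averaged 1.96 ± 0.26 in Fast-Fast-Fed livers and 2.26 ± 0.23 in Fed-Fed-Fed livers (SD, n = 8 each), a difference of -0.31 with an adjusted p of 0.856. Slco4a1, a thyroid hormone carrier of many tissues, averaged 1.51 ± 0.35 in Fast-Fast-Fed livers and 1.22 ± 0.18 in Fed-Fed-Fed livers, a difference of 0.29 with the same adjusted p that was 0.18 without Fast-Fast-Fed replicate 8. Slc22a2, the kidney cation transporter OCT2, averaged 1.496 ± 0.22 in Fast-Fast-Fed livers and 1.31 ± 0.20 in Fed-Fed-Fed livers, a difference of 0.19 (adjusted p = 0.900) that was 0.12 without Fast-Fast-Fed replicate 3.

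Animals of 1 group also differed among themselves, and for 5 pairs of transporters the deviations from the group means were correlated over the 31 arrays. The tests permuted arrays within groups, were 2-sided and were adjusted over the 5 pairs. Slco1a1 and Slco1b2 deviated together (Pearson r = 0.61, adjusted permutation p = 0.0136, Spearman rho = 0.44, adjusted permutation p = 0.0397), with r of 0.53 to 0.71 within the 4 groups. Without the 2 arrays farthest from the median of Slco1a1, r was 0.57. That choice used Slco1a1 alone and kept Fed-Fed-Fast replicate 5, which deviated by -0.51 in Slco1a1 and -0.46 in Slco1b2. Slc22a7 and Slc22a28 did so too (r = 0.40, adjusted permutation p = 0.0268, rho = 0.50, adjusted permutation p = 0.0158), with r of 0.46 to 0.64 within groups and 0.45 without the 2 farthest arrays. Those arrays were chosen by Slc22a7 alone, and Fed-Fed-Fast replicate 5, which deviated by -1.81 in Slc22a28, was kept.

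Slco1a1 and Slc22a7 had an r of 0.49 (adjusted permutation p = 0.0268) and a rho of 0.58 (adjusted permutation p = 0.0127). Their relation rested on few arrays: without the 2 farthest, r was 0.33 (permutation p = 0.115), and within groups it was 0.16 in Fed-Fed-Fast, -0.02 in Fed-Fed-Fed, 0.86 in Fast-Fast-Fast and 0.40 in Fast-Fast-Fed livers. For Slco1a4 neither relation passed the test: r was -0.04 with Slco1a1 (adjusted permutation p = 0.842, rho = 0.07, adjusted permutation p = 0.739) and -0.28 with Slco1b2 (adjusted permutation p = 0.259, rho = -0.29, adjusted permutation p = 0.190). For Slc22a28 and Slc22a30, a pair added after its values were seen, r was 0.79 and rho was 0.68 (permutation p = 3.00e-05 and 0.000140, unadjusted), and r was 0.59 without the 2 farthest arrays.

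**Figure D4:**
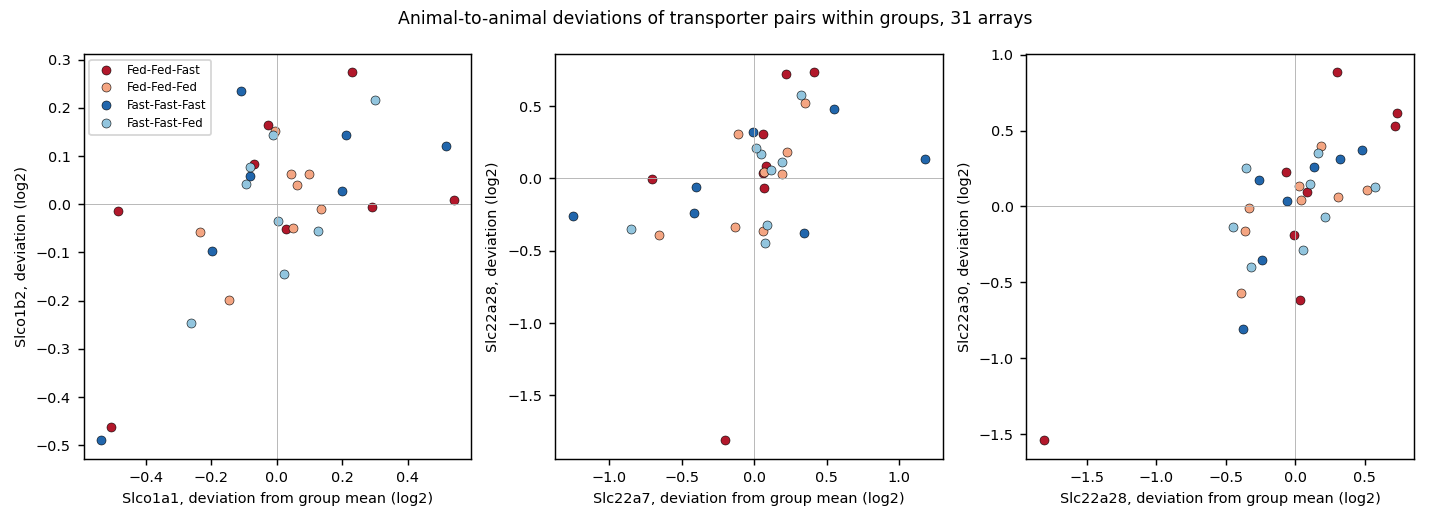
Deviation of each of the 31 arrays from its group mean (log2) for 3 pairs of transporters, coloured by group. The single point at the lower left of the right panel is Fed-Fed-Fast replicate 5, and r is 0.61, 0.40 and 0.79 from left to right.

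The genes that work beside these transporters were counted in fixed lists. Their shares of called genes stand beside 12.5% and 11.6% of all genes, and 29.1% and 26.9% of genes with a mean above 4, without and with earlier fasts. Of 13 measured basolateral carriers of bile acids and organic solutes (14 listed), 2 rose and 3 fell in each response (38.5% called), and the list's median change was 0.05 and -0.05; 4 of the 13 were at or under a mean of 4. Slc16a1, the monocarboxylate and ketone body transporter MCT1, rose by 1.09 without and 1.29 with earlier fasts. Slc17a4, an organic anion and urate transporter, changed by -1.36 and -1.33, and its relative Slc17a3 by -0.49 and -0.60. Abcc3, an exporter of conjugated bile acids into the blood, rose by 0.51 without earlier fasts (adjusted p = 0.000544). With earlier fasts its change of 0.31 did not pass the test (adjusted p = 0.0581). Slc17a1, a phosphate and urate transporter, rose by 0.43 with them (adjusted p = 0.0171) and changed by 0.06 without (adjusted p = 0.846). The interaction was not called for Abcc3 or Slc17a1 (adjusted p = 0.999 each). Abcc6, an ATP exporter, changed by -0.38 and -0.43. The sodium-dependent bile acid carrier Slc10a1, listed with them, had changes of 0.05 and -0.10 that were not called.

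On the canalicular side, 1 of 11 exporters rose and 2 fell in each response, with list medians of 0.10 and -0.13. That is 27.3% called, near the share of all genes with a mean above 4. Abcb4, which flips phosphatidylcholine into bile, rose by 1.03 and 0.98. Abcb11, the bile salt export pump, changed by -1.15 and -1.07, and Atp8b1, a flippase of the same membrane, by -0.90 and -0.86. Of 5 measured scaffold and membrane linker genes (6 listed), 4 fell without and 3 with earlier fasts (80% and 60%), and none rose, with list medians of -0.33 and -0.29. Slc9a3r1, the scaffold NHERF1, changed by -1.02 and -0.90, and the membrane linkers Msn and Rdx by -0.44 and -0.33 without earlier fasts. Slc9a3r2, the scaffold NHERF2, was called without earlier fasts with a change of -0.33.

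Of 18 measured nuclear receptors and other factors known to regulate these transporters (19 listed), 6 rose and 3 fell in each response (50% called). The list medians were -0.01 and 0.09, and the called genes were not all the same. Rxra and Nfe2l2 were called only without earlier fasts, with changes of 0.29 and -0.37. Nr1h4 and Nr5a2 were called only with earlier fasts, with changes of 0.34 and -0.32. The interaction was not called for any of them (adjusted p = 0.999 each). Nr1i3, the xenobiotic receptor CAR, rose by 1.39 and 1.15, and Cebpb, a C/EBP factor of stress and fasting responses, by 1.11 and 0.61. Ppara, the fatty acid receptor, rose by 0.47 and 0.52, and Nr1i2, the receptor PXR, by 0.46 and 0.50. Cebpa, another C/EBP factor, was called lower in both, with changes of -0.28 and -0.50.

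Of 8 measured targets of CAR and PXR (10 listed), 3 rose and 3 fell without earlier fasts, and 2 rose and 3 fell with them (75.0 and 62.5% called), with list medians of -0.0002 and -0.03. Cyp2b10, a CAR target that oxidises drugs, rose by 1.63 and 1.12. Alas1, which makes the precursor of haem, rose by 0.84 and 1.26. Cyp2c55 changed by -2.42 and -2.15 and Cyp2c29 by -0.95 and -0.94, both drug- and fatty acid-oxidising enzymes. Gstm1, a glutathione transferase, changed by -0.41 and -0.42. Cyp3a11, listed with them, had changes of -0.02 and 0.11 that were not called (adjusted p = 0.963 and 0.710). No gene of these 5 lists was called in a comparison of earlier fasts, against 0% of all genes.

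**Figure D5:**
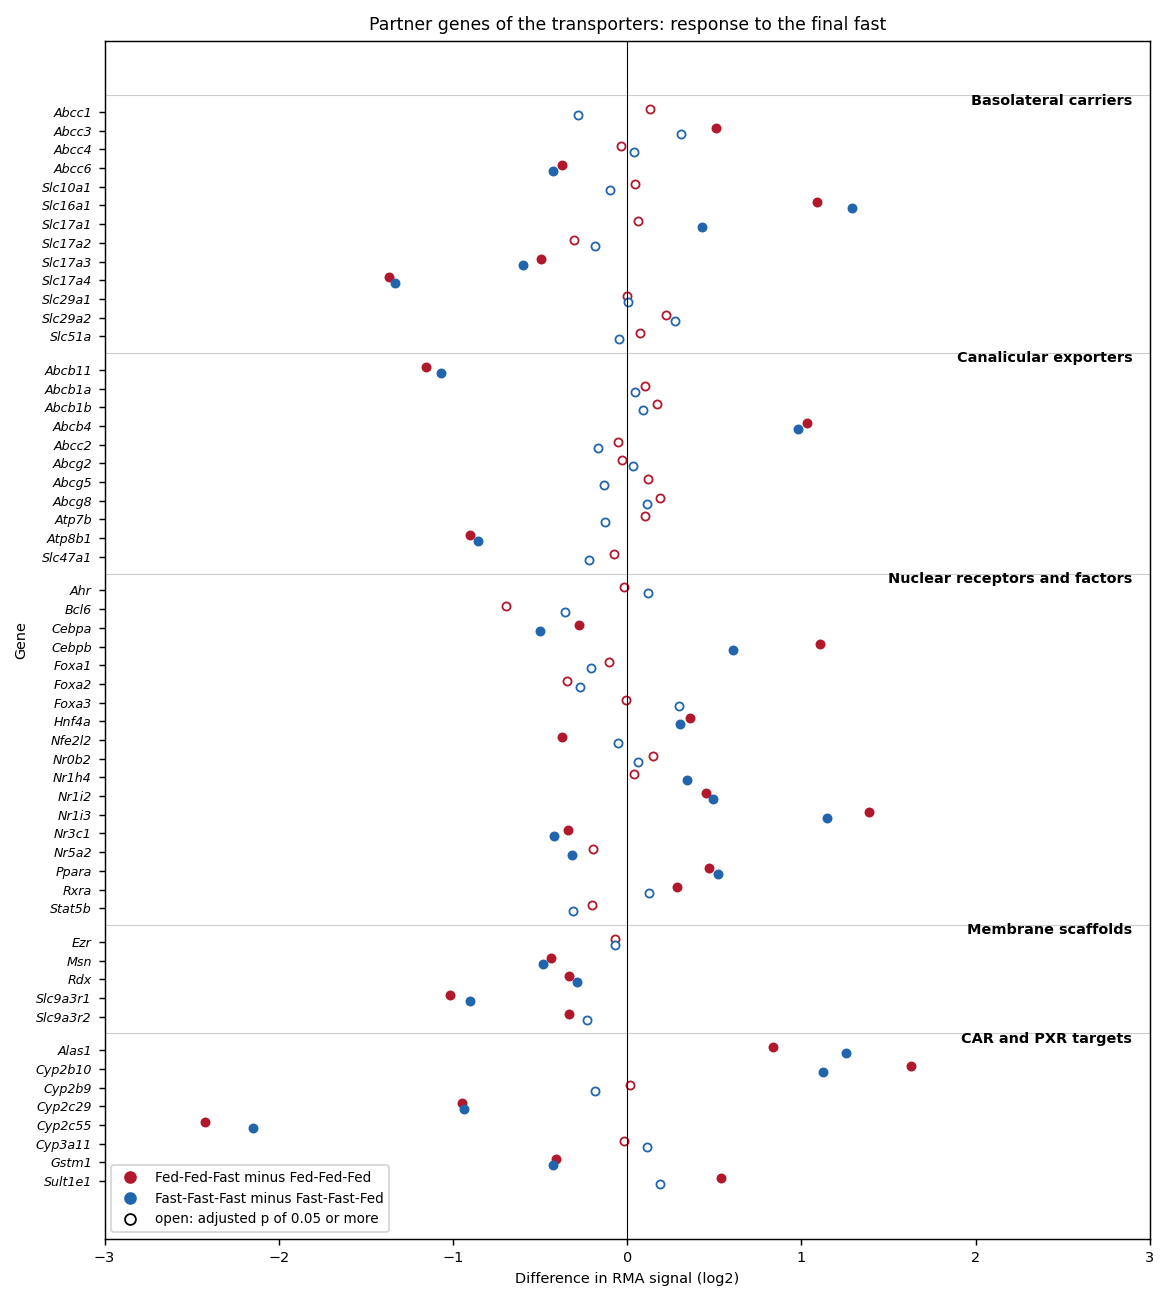
Change in RMA signal (log2) between fasted and fed livers for the measured genes of 5 lists of partner genes, in red without and in blue with 2 earlier fasts; filled points have an adjusted p under 0.05. Nr1i3, Cyp2b10, Slc16a1 and Abcb4 lie on the right, and Cyp2c55, Slc17a4, Abcb11 and Slc9a3r1 on the left.

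Markers of liver cells and zones were counted in the same way, beside 12.5% and 11.6% of all genes called without and with earlier fasts. Of 8 hepatocyte markers, 1 rose and 2 fell without and 1 fell with earlier fasts (37.5% and 12.5% called). Of 9 Kupffer cell markers, all with a mean above 4, 6 fell without earlier fasts (66.7%) and 3 with them (33.3%), and none rose, against 29.1% and 26.9% of all genes above that level called in either direction. The mean of that list was 4.75 to 5.84 in Fed-Fed-Fast livers and 5.20 to 6.29 in Fed-Fed-Fed livers, and 4.83 to 5.75 in Fast-Fast-Fast livers and 4.89 to 5.99 in Fast-Fast-Fed livers. Of 8 stellate cell markers 3 fell in each response (37.5% called), and 3 of the 8 were at or under a mean of 4. Of 8 sinusoidal endothelial markers 1, Lyve1, rose in each response, by 0.93 and 1.06, and Cdh5 was called lower with earlier fasts (12.5% and 25% called). None of the 5 measured cholangiocyte markers and none of the 7 kidney tubule markers was called, and 4 of those 5 and all 7 were at or under 4.

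Hepatocyte zones gave calls in both directions. Of 10 pericentral markers, 3 rose and 2 fell without earlier fasts and 2 rose and 3 fell with them (50% called in each response). Of 8 measured periportal markers, 3 rose and 2 fell in each response (62.5% called). The shares of all genes with a mean above 4 were 29.1% without and 26.9% with earlier fasts. The part of cell and zone makeup in the transporter changes was not tested.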

How the data were processed

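The files hold log2 values of 31 Affymetrix whole-transcript arrays, which the authors deposited after RMA, per the submitters' processing notes. RMA is a method that corrects background, equalises array distributions and summarises probes, and these steps could not be checked on scanner values. Its version, detection calls and batches are not given in the sources used here. Biotin-labelled targets were made from 100 ng of total RNA, per the labels' protocols. Each array was read as 1 mouse. The labels number the replicates without saying whether they are separate litters or cages, so p-values measure the spread between these samples.

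Of 41345 probe sets, 23521 carried 1 gene symbol in the platform annotation, 1814 carried more and 16010 carried none. Per gene the probe set of highest average was kept, which left 22180 genes. One limma model (R 4.3.3, limma 3.58.1) held the means of the 4 groups, with variances moderated by eBayes, and gave 6 comparisons. Calls needed an adjusted p under 0.05 (Benjamini-Hochberg, 2-sided, all genes). No array was dropped or imputed. Intervals are at 95%. Correlations used 100000 permutations within groups. The fit was tested on simulated data. Promoters came from RefSeq on GRCm38.p6 and were aligned with Biopython 1.88. Figures used matplotlib 3.10.9 in Python 3.11.15, with numpy 2.4.6 and pandas 2.3.3.

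The alternatives were fits on only the groups compared, with an intensity trend, on the mean of a gene's probe sets, on genes above a mean of 4, after cyclic loess, with a replicate block, with array weights and without each array in turn, and correlations without the 2 farthest arrays. Members, lists and tests were chosen with earlier results of these data known. The text names members called in any comparison, a fixed list of further members, and the 3 other members with the smallest p in the comparisons of earlier fasts. It also names up to 4 called genes per partner list and response with the largest changes. Slc22a13, Slc22a15, Slc10a1, Abcc6, Gstm1, Cyp3a11, Rxra, Nfe2l2, Nr1h4, Nr5a2, Lyve1, Cdh5, the genes of low level and the 8 motifs named were chosen outside that rule, some after their values were seen. Probe sets with several symbols were not used.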

Additional observations from a re-analysis of the deposited data

Results flagged for a closer look

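Single arrays of 5 gene and group combinations, of 56 tested for the 14 named transporters, stood apart from the other arrays of their group by Dixon's test at the 95% level. Chance gives about 1 in 20. Fed-Fed-Fast replicate 5 had the lowest Slc22a28, at 4.71 against 6.45 to 7.25 in the other arrays, and the lowest Slco1b2, at 10.41 against 10.82 to 11.14. Fast-Fast-Fed replicate 2 had the lowest Slc22a7, at 5.92 against 6.79 to 7.10, and Fast-Fast-Fed replicate 7 the highest Slc22a23, at 8.14 against 7.91 to 7.99. Fed-Fed-Fed replicate 7 had the highest Slco1a4, at 6.98 against 6.36 to 6.65.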

How the results depend on the processing

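In every alternative 1 transporter was higher in each response to the final fast. The number lower was 6 to 7 without earlier fasts and 6 with them in the other fits, and 5 to 7 in both when 1 array was left out, against 7 and 6 as reported. No transporter was called in a comparison of earlier fasts under any alternative, and no called change reversed. The calls of Slco1a1, Slco1a4, Slc22a7 and Slc22a28 in both responses of Slc22a30 and Slco2a1 without earlier fasts and of Slc22a23 with earlier fasts were kept in all of them. Slc22a23 without earlier fasts was lost when only the groups compared were fitted (adjusted p = 0.0553) and with the replicate block (adjusted p = 0.0704), which left 6 transporters lower; the cause was not tested. Same-numbered arrays showed weak correlation of their deviations (median r = 0.03 over 45 pairs, -0.06 to 0.12, and -0.003 over other pairs), and 7 of 31 arrays correlated best with an array of their own number. The numbers were not taken as pairing the mice, since not every same-numbered pair passed an r of 0.1. The correlation of Slco1a1 with Slc22a7 was 0.33 without the 2 arrays farthest from the median of Slco1a1 (permutation p = 0.115). Over all 22180 genes, 2525 to 2851 were called in the 2 responses by the alternatives that fitted all 31 arrays together. Fits on only the groups compared called 2545 genes without and 2372 with earlier fasts. The fit on the 7863 genes above a mean of 4 called 2834 and 2701. Signal over background was not analysed here, and whether the 25 transporters of low level were detected is not known.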
